A study of Mus musculus with 6 samples.

Results

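Neurotrophins and the GDNF family are the growth factors that keep peripheral neurons alive and shape which sensory modality each neuron serves. The neurotrophins signal through the Trk receptor tyrosine kinases, each with its preferred ligand, while the pan-neurotrophin receptor encoded by Ngfr binds all of them and pairs with sortilin to receive the unprocessed pro-forms. The GDNF family ligands bind a GPI-anchored co-receptor of the GFRα family, and the ligand-bound co-receptor then engages the receptor tyrosine kinase RET. In the dorsal root ganglion (DRG) these receptors divide the sensory neurons into classes, and the transcription factors RUNX1 and RUNX3 are known there for their part in the choice among them. Schwann cells and satellite glia also express several of the genes, among them Ngfr, Gfra1 and truncated Ntrk2.

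The 8 genes examined are Ntrk2, Ntrk3, Ngfr, Sort1, Ret, Gfra1, Gfra2 and Gfra3. They were found by symbol among the 24062 genes counted in each of 6 libraries, and all 8 were found and passed the filter on low counts that left 15652 genes for testing. All mice had the C57BL/6-I129 strain background and carried the DhhCre driver, which recombines in the Schwann cell lineage of the developing nerve. In the comparison group (n = 3) both Nf1 alleles were floxed (Nf1fl/fl;DhhCre), a mouse model of plexiform neurofibroma, a benign nerve sheath tumor. In the second group (n = 3) Runx1 and Runx3 were floxed as well. Its genotype label reads Rx1flfl;Rx3fl/fl;DhhCre, while the extraction protocol adds Nf1fl/fl, so that Nf1 loss is common to both groups. The tissue label is DRG for the Nf1fl/fl;DhhCre libraries and neurofibroma tumor for the others, where the protocol gives DRG/tumors for both, so that genotype and any difference in dissected tissue cannot be told apart. Ages are not given in the sources used here. The question the comparison addresses is how the transcriptome of the Nf1-deficient nerve tissue differs when both Runx genes are also deleted in the Schwann cell lineage.

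Library totals ranged from 12439296 to 16682194 counts. Levels are given in CPM, counts per the library total scaled by the TMM factor of each library, and 3 counts correspond to 0.179 to 0.247 CPM. This is the level that a count of 0 still allows, for counting error alone. Runx1, one of the genes targeted, measured 131, 141 and 172 CPM in the Nf1fl/fl;DhhCre libraries and 84.0, 78.9 and 185 CPM in those labelled double knockout. Replicate 3 of the second group was thus not lower for Runx1 than any Nf1fl/fl;DhhCre library. Runx3 measured 19.9, 15.1 and 29.9 CPM against 13.5, 10.3 and 12.1 CPM, with no overlap. Neither difference passed the test (limma-voom adjusted p = 0.370 for Runx1 and 0.104 for Runx3). Without labelled double knockout replicate 3, Runx1 differed by -0.85 on the log2 scale instead of -0.44 (adjusted p = 0.0290). For Runx3, with -0.79 over all libraries, the difference ranged from -0.99 to -0.49 with 1 library left out. Its adjusted p was under 0.05 without Nf1fl/fl;DhhCre replicate 2 (0.0430) and by DESeq2 (0.0278). Counts over a whole gene include exons outside a floxed part and cells in which Cre is not active. The group is therefore called "labelled double knockout" throughout. The same replicate 3 was, by its label, sequenced in another run than the other 5 libraries. The labels and the deposited data disagree on whether replicate 2 or 3 of this group came from that run. In either case the run cannot be told apart from the single library it holds. Replicates were libraries named by separate mouse numbers, and p-values weigh the difference between the groups against the spread between these libraries.

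Promoter windows are described for the receptor genes for which one was available, because the deleted factors bind a known core, TGTGGT. Any link between these windows and the expression results that follow was not tested. The RefSeq promoter table (GRCm38.p6, 250 bases upstream of the gene start) held 3 of the 8 genes, namely Ntrk2, Ngfr and Gfra1. Only bases outside annotated exons are printed, 5′ to 3′ on the strand of the gene, with any TGTGGT or its reverse complement ACCACA in capitals.
Ntrk2, chr13:58806319-58806568, plus strand: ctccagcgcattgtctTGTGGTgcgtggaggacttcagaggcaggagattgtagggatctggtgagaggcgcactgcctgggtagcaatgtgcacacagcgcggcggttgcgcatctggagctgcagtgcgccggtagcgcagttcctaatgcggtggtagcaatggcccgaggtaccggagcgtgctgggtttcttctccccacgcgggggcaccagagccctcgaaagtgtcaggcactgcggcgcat
Ngfr, chr11:95587736-95587948, minus strand: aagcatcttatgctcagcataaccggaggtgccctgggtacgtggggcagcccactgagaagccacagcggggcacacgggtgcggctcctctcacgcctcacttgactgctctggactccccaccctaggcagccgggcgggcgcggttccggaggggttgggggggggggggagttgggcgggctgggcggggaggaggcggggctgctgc
The Ntrk2 window held 1 match, starting 234 bases before the gene start, while the windows of Ngfr and Gfra1 held none. Of all 32851 mouse promoter windows of this length, 4614 held at least 1 match (14.05%). These counts hold for this 6-letter form alone, and other forms of the RUNX core were not counted. A match of 6 letters is a description of the window and not a binding site.

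Across the receptors, 3 of 8 were called higher in the labelled double knockout libraries, Ntrk3, Ngfr and Ret, where called means an adjusted p under 0.05 and more than a 2-fold difference. None was called lower by limma-voom, edgeR or DESeq2, and with these tools none was lower at an unadjusted p under 0.05. Ntrk2 was lower at an unadjusted limma-voom p of 0.0400 with sample quality weights and of 0.0496 without labelled double knockout replicate 1 (adjusted p = 0.109 and 0.156). Over all genes tested, 8.03% were called higher and 5.36% lower. At an adjusted p under 0.05 with any fold, 6 of the 8 passed, all of them higher, beside 19.3% of all genes in either direction. This count fell to 0 without Nf1fl/fl;DhhCre replicate 1 and to 3 without Nf1fl/fl;DhhCre replicate 3 or labelled double knockout replicate 2 or 3. It fell to 4 without either of the remaining libraries. The share of all genes called in either direction was 2.26% without Nf1fl/fl;DhhCre replicate 1 and 6.47% without its replicate 3. It was 6.36% and 9.98% without labelled double knockout replicate 2 and 3. Without Nf1fl/fl;DhhCre replicate 2 or labelled double knockout replicate 1 it was 14.3% or 11.7%. The same 6 genes had no overlap between the groups, beside 42.3% of all genes. The median log2 fold change of all 8 receptors was 0.69, against 0.02 over all genes. Without labelled double knockout replicate 3, 2 of the 8 were called higher (Ntrk3 and Ret), beside 7.02% of all genes, and without Nf1fl/fl;DhhCre replicate 1 none was, beside 1.13%, with 6 higher at an unadjusted p under 0.05. In a bulk library, fewer cells of a type and less RNA per cell cannot be told apart.

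**Figure D1:**
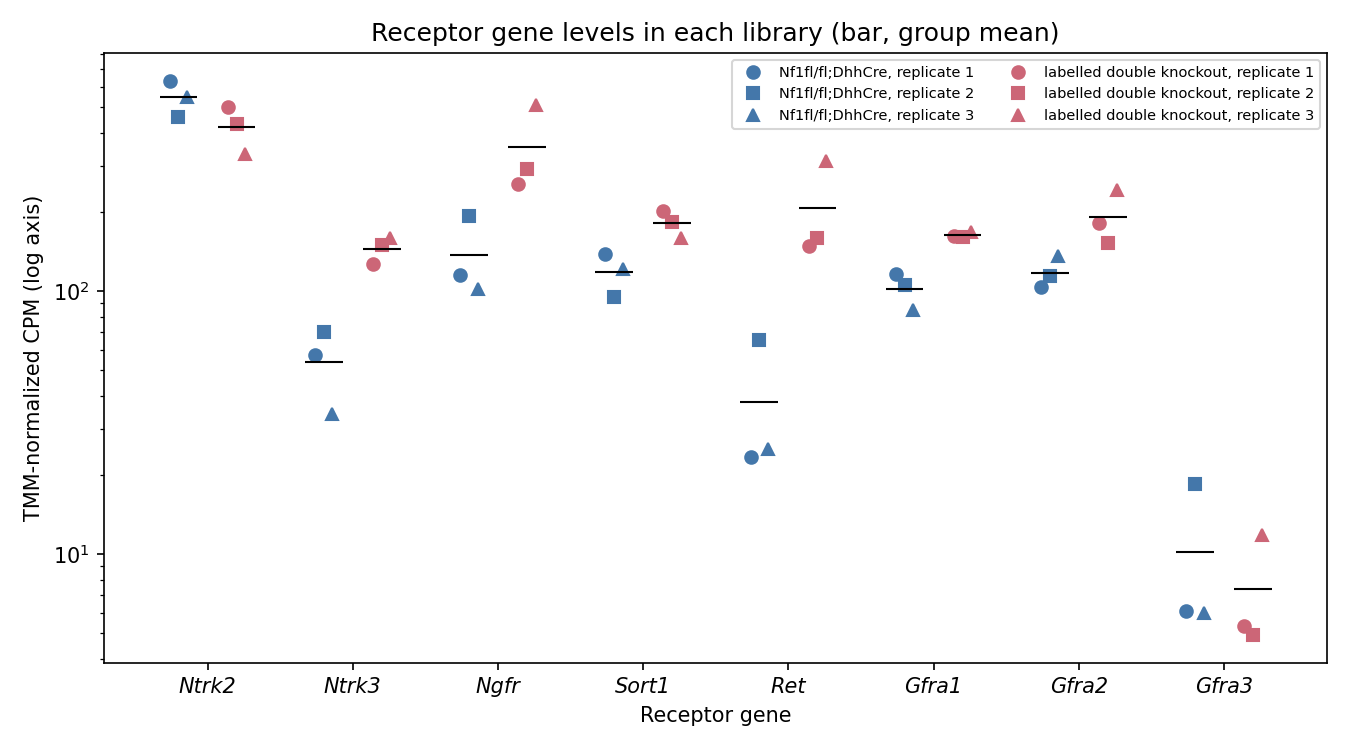
TMM-normalized CPM (log axis) of the 8 receptor genes in each library, with blue symbols for Nf1fl/fl;DhhCre, red symbols for labelled double knockout and a black bar at each group mean. Ntrk3, Ngfr, Sort1, Ret, Gfra1 and Gfra2 lie higher in all 3 labelled double knockout libraries, while the groups of Ntrk2 and Gfra3 overlap.

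Ntrk2 encodes TrkB, the receptor for brain-derived neurotrophic factor and neurotrophin-4, which exists both as the full kinase and as truncated forms without it. The gene lies at chr13:58806569-59133970 on the plus strand of GRCm38. It measured 632, 461 and 546 CPM in the Nf1fl/fl;DhhCre libraries (546 ± 85.4, SD, n = 3) and 500, 432 and 332 CPM in the labelled double knockout libraries (421 ± 84.7). The lowest Nf1fl/fl;DhhCre library lay below the highest labelled double knockout library, so the groups overlapped. By limma-voom the difference was -0.38 on the log2 scale (SE 0.19, 95% interval -0.82 to 0.05, adjusted p = 0.187).

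Ntrk3 encodes TrkC, the receptor for neurotrophin-3 and a marker of proprioceptive neurons, and lies at chr7:78175959-78738012 on the minus strand. Its levels were 57.3, 69.9 and 34.0 CPM (53.7 ± 18.2, n = 3) in Nf1fl/fl;DhhCre and 126, 151 and 159 CPM (145 ± 16.9) in labelled double knockout. The lowest library of the second group was well above the highest of the first. The 2.81-fold difference corresponded to 1.49 on the log2 scale (SE 0.26, 95% interval 0.89 to 2.09, limma-voom adjusted p = 0.0134), and to 1.42 without labelled double knockout replicate 3. With 1 library left out, the call was lost only without Nf1fl/fl;DhhCre replicate 1 (adjusted p = 0.0541). Counts per gene add the kinase and truncated isoforms of Ntrk2 and of Ntrk3, so these values do not say which form changed.

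Ngfr encodes the low-affinity pan-neurotrophin receptor, found on sensory neurons and on Schwann cells that are immature or have lost axon contact (chr11:95568818-95587735, minus strand). It measured 115, 194 and 102 CPM (137 ± 49.9, n = 3) in Nf1fl/fl;DhhCre and 256, 293 and 511 CPM (353 ± 138) in labelled double knockout. Replicate 3 of the second group, the library not reduced for Runx1, was the highest. On the log2 scale the difference was 1.36 (SE 0.33, 95% interval 0.59 to 2.12, limma-voom adjusted p = 0.0301), or 2.56-fold. Without that library it was 1.06 and no longer passed (adjusted p = 0.0560), and the call was also lost without Nf1fl/fl;DhhCre replicate 1 (0.0958), Nf1fl/fl;DhhCre replicate 3 (0.0837) or labelled double knockout replicate 2 (0.0643). Neither of the other called receptor genes depended on this many libraries.

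Sort1 encodes sortilin, the sorting receptor that joins the Ngfr product in binding pro-neurotrophins (chr3:108284082-108361511, plus strand). Its levels were 139, 95.2 and 122 CPM (119 ± 22.0, n = 3) against 201, 183 and 159 CPM (181 ± 21.2). The groups did not overlap. The log2 fold change of 0.62 (SE 0.17, 95% interval 0.22 to 1.03, limma-voom adjusted p = 0.0442) passed on p but not on fold. With any 1 library left out, the adjusted p was above 0.05 (0.0520 to 0.112). An antisense gene, Gm12523, shares 338 exonic bases with Sort1, and whether counting used strand is not given in the sources used here, so reads from the pair cannot be told apart.

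Ret encodes the signalling receptor of the GDNF family (chr6:118151745-118197718, minus strand) and had the largest fold change of the 8 genes. It measured 23.4, 65.1 and 25.1 CPM (37.9 ± 23.6, n = 3) in Nf1fl/fl;DhhCre and 148, 160 and 313 CPM (207 ± 92.3) in labelled double knockout. Replicate 2 was the high library of the first group and replicate 3 that of the second. The groups remained apart, and the log2 fold change was 2.52 (SE 0.45, 95% interval 1.48 to 3.57, limma-voom adjusted p = 0.0143), or 5.76-fold. Without labelled double knockout replicate 3 it was 2.18 and remained called. With 1 library left out, the call was lost only without Nf1fl/fl;DhhCre replicate 1 (adjusted p = 0.0587).

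Gfra1 encodes the co-receptor that prefers GDNF (chr19:58235604-58455909, minus strand). It measured 116, 105 and 84.9 CPM (102 ± 15.9, n = 3) against 162, 160 and 169 CPM (164 ± 4.46). The 3 labelled double knockout libraries were closer to each other for Gfra1 than for any other receptor gene in CPM relative to the mean, and all lay above the first group. Its difference of 0.69 on the log2 scale was under 2-fold (SE 0.14, 95% interval 0.36 to 1.03, limma-voom adjusted p = 0.0202). The adjusted p was above 0.05 without Nf1fl/fl;DhhCre replicate 1 (0.0526) or labelled double knockout replicate 2 (0.0544). Gfra1 shares 416 exonic bases with the antisense gene Gm16277, with the same limit on strand.

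Gfra2 encodes the co-receptor that prefers neurturin (chr14:70890120-70979838, plus strand). It measured 104, 114 and 136 CPM (118 ± 16.2, n = 3) against 182, 153 and 242 CPM (192 ± 45.4). Its groups did not overlap either, and its log2 fold change of 0.69 (SE 0.20, 95% interval 0.23 to 1.15, limma-voom adjusted p = 0.0472) was near that of Gfra1 and under 2-fold. With 1 library left out, the adjusted p of Gfra2 was above 0.05 in 5 of the 6 fits (up to 0.115), the exception being the fit without labelled double knockout replicate 2 (0.0477). With normalization by library size alone, the adjusted p was 0.0676 for Gfra2 and 0.0799 for Sort1.

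Gfra3 encodes the co-receptor that prefers artemin, carried by a class of nociceptive neurons (chr18:34689898-34720387, minus strand). It had few counts, 88, 310 and 93 against 67, 60 and 179, or 6.10, 18.5 and 5.97 CPM (10.2 ± 7.18, n = 3) against 5.34, 4.93 and 11.8 CPM (7.36 ± 3.86). One library in each group was more than 2-fold above the others of its group, replicate 2 of Nf1fl/fl;DhhCre and replicate 3 of labelled double knockout, and the groups overlapped. The fitted difference of -0.35 (SE 0.56, 95% interval -1.66 to 0.95, limma-voom adjusted p = 0.691) changed sign to 0.27 without Nf1fl/fl;DhhCre replicate 2.

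Levels of the genes can be compared with each other only per length, and were divided by the exonic bases of each gene (GENCODE M21, union over transcripts), a divisor that is large for Ntrk2 and Ntrk3 because of their long untranslated exons. In Nf1fl/fl;DhhCre the order in CPM per kb was Ngfr (39.7 ± 14.5), Gfra2 (33.3 ± 4.57), Ntrk2 (28.3 ± 4.43), Gfra1 (18.7 ± 2.91), Sort1 (15.7 ± 2.91), Ret (5.60 ± 3.49), Gfra3 (5.10 ± 3.59) and Ntrk3 (1.78 ± 0.60). Neighbours in this order whose libraries overlapped were Ngfr and Gfra2, Gfra2 and Ntrk2, Gfra1 and Sort1, and Ret and Gfra3. In labelled double knockout the order was Ngfr (102 ± 40.0), Gfra2 (54.3 ± 12.8), Ret (30.6 ± 13.6), Gfra1 (29.9 ± 0.81), Sort1 (23.9 ± 2.81), Ntrk2 (21.8 ± 4.39), Ntrk3 (4.82 ± 0.56) and Gfra3 (3.69 ± 1.93). Here Gfra2 and Ret, Ret and Gfra1, Sort1 and Ntrk2, and Ntrk3 and Gfra3 overlapped. Ret moved from rank 6 to rank 3, and Ntrk2 from rank 3 to rank 6.

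Neuronal RNA moved with these results. Of 14 pan-neuronal genes, 13 were called higher in labelled double knockout by limma-voom (11 without replicate 3 of that group, 1 without Nf1fl/fl;DhhCre replicate 1), with a median log2 fold change of 2.38. Their summed level was 1426, 2547 and 1384 CPM in the Nf1fl/fl;DhhCre libraries and 6202, 7132 and 13654 CPM in the labelled double knockout libraries. The lower sums were thus in the libraries with the tissue label DRG, and the higher sums in those labelled neurofibroma tumor. Whether these tissue labels are right was not tested. None of the 14 was at 0 in any library, and the most abundant were Nefl, a neurofilament subunit, and Snap25, a synaptic vesicle fusion protein. The libraries highest in this sum within each group, replicate 2 of the first and replicate 3 of the second, were also the highest of their groups for Ntrk3, Ngfr, Ret and Gfra3. The part of neuronal RNA content in the receptor changes was not tested. Of 10 general Schwann cell genes, 1 was called higher, beside 8.03% of all genes tested. At an unadjusted limma-voom p under 0.05, 3 of the 10 were higher and 3 lower. Their median was -0.08, with summed levels of 1645 to 1840 CPM against 1698 to 2221 CPM. Cdh19, an adhesion molecule of the Schwann cell lineage, was among the most abundant of these.

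Each receptor was also expressed as a ratio to the pan-neuronal genes of the same library (the log2 CPM of the gene minus the mean log2 CPM of the 14). The exact permutation tests of 3 libraries against 3 that follow are two-sided and cannot give a p below 0.1. Among the 21 ratios formed in all, no adjusted p could be under 0.05. Because the pan-neuronal genes were themselves higher, this scale shifts every gene alike, and 95.3% of all tested genes were lower on it in labelled double knockout and 83.4% had no overlap. The 7 of 8 receptors that were lower, and the 7 of 8 without overlap, are near these shares and say nothing particular to the receptors. Ret was the receptor with a higher mean. The Ret ratio was -0.51, 0.03 and -0.37 in Nf1fl/fl;DhhCre and 0.18, 0.05 and 0.23 in labelled double knockout, a log2 difference of 0.44 (exact permutation p = 0.1), with the nearest libraries of the groups almost touching.

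The Ngfr ratio had the tightest groups, with means of 1.68 ± 0.093 and 0.94 ± 0.021 (n = 3 each) and a difference of -0.74. The ratio of Ntrk3 differed by -0.61, that of Gfra1 by -1.40 and that of Gfra2 by -1.41, all without overlap and each at an exact permutation p of 0.1. The Sort1 ratio differed by -1.47, but its groups overlapped (exact permutation p = 0.2). The most negative differences were those of Ntrk2 and Gfra3, at -2.48 and -2.46. For Gfra3 the group means were -2.22 ± 0.38 and -4.69 ± 0.24.

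**Figure D2:**
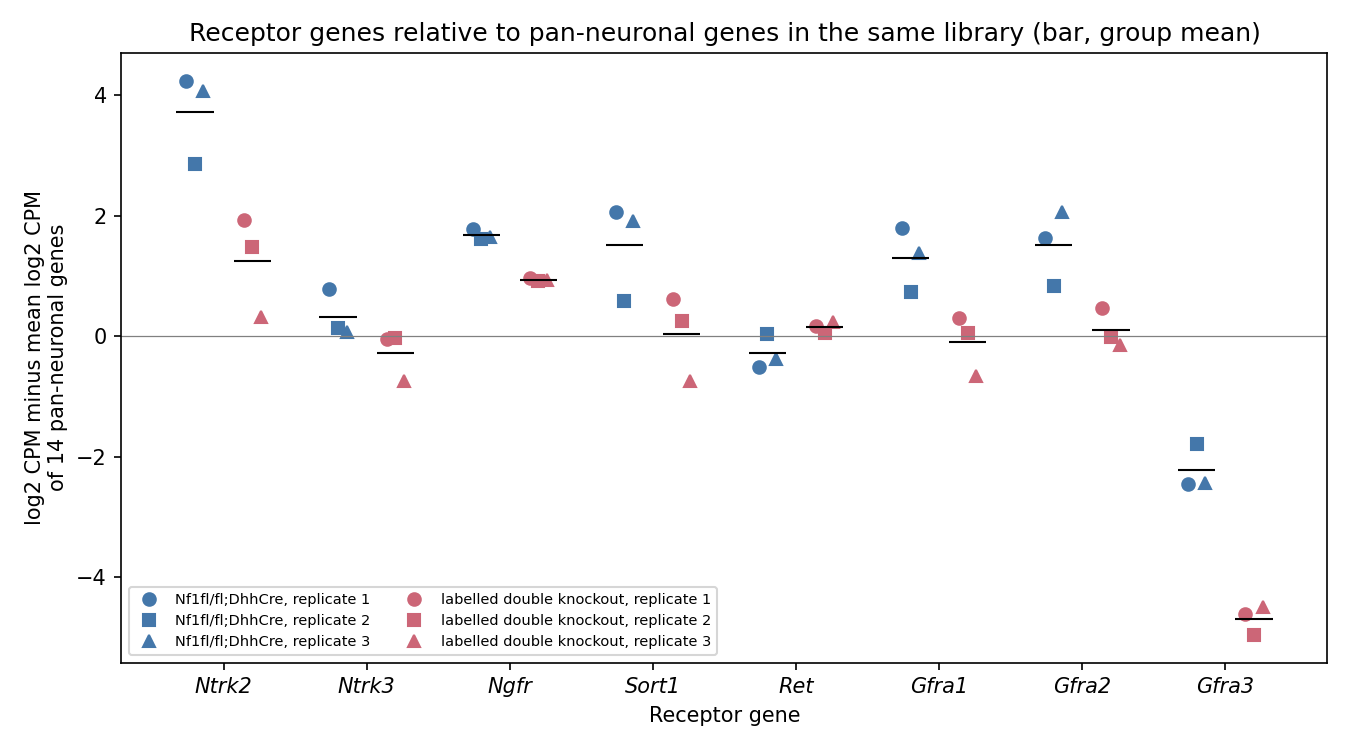
Log2 CPM of each receptor gene minus the mean log2 CPM of 14 pan-neuronal genes in the same library, with blue symbols for Nf1fl/fl;DhhCre, red symbols for labelled double knockout and a bar at each group mean. The labelled double knockout libraries lie higher for Ret, while the Gfra3 means are -2.22 and -4.69.

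Relative to the 10 general Schwann cell genes, 2 of the 8 receptors were lower and 7 had no overlap, beside 54.8% and 39.0% of all tested genes, and the directions were those in CPM. Ret was higher by 2.45 on the log2 scale, Ntrk3 by 1.41, Ngfr by 1.28, Gfra1 and Gfra2 by 0.61 each and Sort1 by 0.54, all without overlap (exact permutation p = 0.1 for each). Ntrk2 was lower by this measure, with a difference of -0.47 and no overlap (exact permutation p = 0.1). Gfra3 differed by -0.45 with overlapping groups (exact permutation p = 0.5).

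A GFRα co-receptor and RET work as a pair, and the co-receptors were also expressed relative to Ret. Since Ret itself was called higher, 97.5% of all tested genes were lower in labelled double knockout on this scale and 85.0% had no overlap, and the lower ratios of all 3 co-receptors are read against that. The log2 ratio of Gfra1 to Ret was 1.59 ± 0.82 in Nf1fl/fl;DhhCre and -0.25 ± 0.56 in labelled double knockout, and that of Gfra2 to Ret 1.80 ± 0.87 and -0.05 ± 0.34 (n = 3 each). The difference was -1.84 for both, without overlap (exact permutation p = 0.1 for each, the smallest possible). The ratio of Gfra3 to Ret was -1.93, -1.82 and -2.07 in Nf1fl/fl;DhhCre and -4.78, -5.00 and -4.73 in labelled double knockout, a 7.46-fold lower ratio whose spread within each group (SD 0.12 and 0.15) was small beside the difference (exact permutation p = 0.1). Within each group the library with the most Ret also had the most Gfra3, and the ratio of Gfra3 to Ret was lower in all 3 labelled double knockout libraries than in any Nf1fl/fl;DhhCre library. With any 1 library left out, the difference of -2.90 stayed between -2.96 and -2.82.

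**Figure D3:**
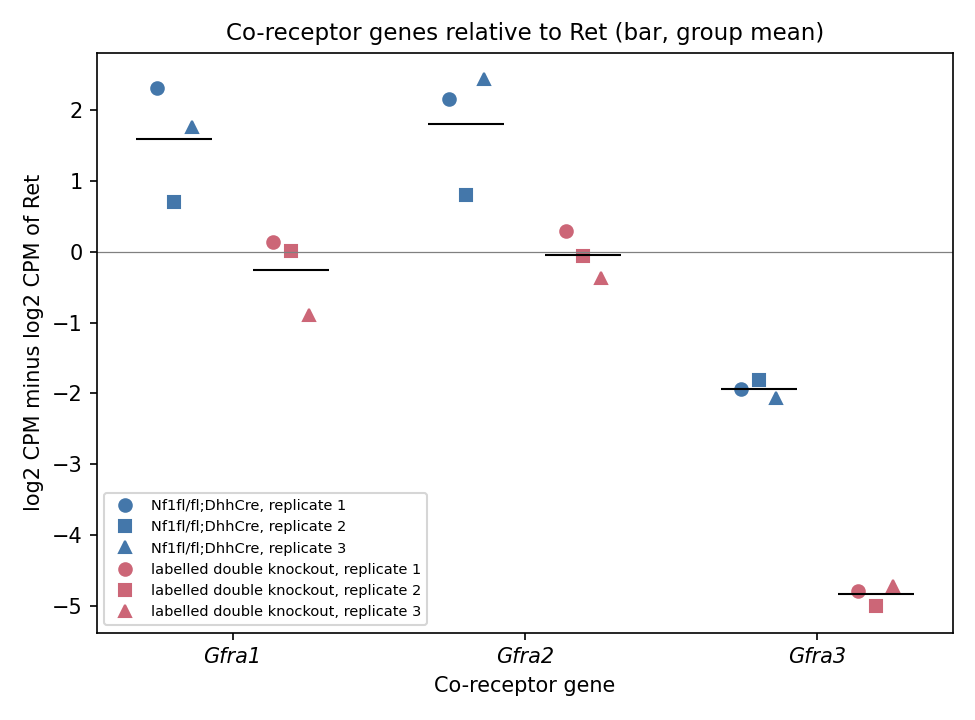
Log2 CPM of Gfra1, Gfra2 and Gfra3 minus the log2 CPM of Ret in the same library, with blue symbols for Nf1fl/fl;DhhCre, red symbols for labelled double knockout and a bar at each group mean. The Gfra3 ratio separates the groups with the smallest spread, near -1.94 against -4.84.

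Among the neurotrophin receptors, the log2 ratio of Ntrk2 to Ntrk3 was 3.40 ± 0.64 in Nf1fl/fl;DhhCre and 1.52 ± 0.46 in labelled double knockout (n = 3 each), a difference of -1.87 without overlap (exact permutation p = 0.1). The ratio of Ngfr to Sort1 differed by 0.74 with overlapping groups (exact permutation p = 0.3).

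Ligands of both families were also measured. Gdnf, the ligand of the Gfra1 and Ret pair, measured 7.70, 10.4 and 9.30 CPM in Nf1fl/fl;DhhCre and 2.95, 0.905 and 1.39 CPM in labelled double knockout, and was called lower (log2 difference -2.53, SE 0.44, limma-voom adjusted p = 0.0137). Without Nf1fl/fl;DhhCre replicate 1 its adjusted p was 0.0501. The receptor Ret and its ligand Gdnf thus differed in opposite directions.

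Bdnf, the ligand of TrkB, measured 3.40, 8.64 and 3.46 CPM against 7.25, 6.66 and 11.4 CPM, with overlap (log2 fold change 0.81, SE 0.43, limma-voom adjusted p = 0.220). Ntf3 had 2, 1 and 0 counts against 4, 4 and 5. Ntf5 was at 0 in every library, which allows up to 0.247 CPM, and Nrtn, Artn and Pspn had at most 3 counts in any library. These ligands did not pass the filter on low counts. With every gene above 0 counts tested, Ntf3, Nrtn, Artn and Pspn were not called, and Ntf3 was higher at an unadjusted limma-voom p of 0.0250 (adjusted p = 0.107). Macrophage genes and fibroblast or perineurial genes moved with Gdnf: 6 of 8 and 5 of 8 were called lower, beside 5.36% of all genes tested. These numbers were 4 and 4 without labelled double knockout replicate 3, and 0 and 1 without Nf1fl/fl;DhhCre replicate 1. The sums of these genes went from 426 to 976 CPM down to 92.6 to 205 CPM and from 8640 to 9716 CPM down to 3064 to 4964 CPM. Their part in the Gdnf result was not tested.

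Of 12 other receptor subunits and modulators, 3 were called higher and 1 lower, beside 8.03% and 5.36% of all genes tested. Without Nf1fl/fl;DhhCre replicate 1 the counts were 0 and 1, beside 2.26% of all genes in either direction. The median log2 fold change of the 12 was 0.70. Rtn4r, the Nogo receptor that can signal through the Ngfr product, was higher by 2.33 (SE 0.59, limma-voom adjusted p = 0.0355) from levels of 0.763 to 1.49 CPM. Its partner Lingo1 was higher by 1.91 (SE 0.45, adjusted p = 0.0282), and Ngfrap1, named for its association with the Ngfr product, by 1.39 (SE 0.39, adjusted p = 0.0454). Each of these calls was lost when certain single libraries were left out. Ngfrap1 lost its call without Nf1fl/fl;DhhCre replicate 1 (0.131) or 3 (0.115) or labelled double knockout replicate 2 (0.0936) or 3 (0.0806). Rtn4r lost it without Nf1fl/fl;DhhCre replicate 1 (0.112), 2 (0.0523) or 3 (0.1005) or labelled double knockout replicate 2 (0.0641), and Lingo1 without Nf1fl/fl;DhhCre replicate 1 (0.0771) or 3 (0.0695). Sorcs2, a sortilin relative that also acts as a pro-neurotrophin receptor, measured 168, 168 and 184 CPM against 79.0, 66.4 and 71.9 CPM. It was the gene called lower, at -1.26 on the log2 scale (SE 0.12, limma-voom adjusted p = 0.00598), opposite in direction to Sort1, and it remained called with any 1 library left out.

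Of 20 adaptors and signal transducers, 1 was called higher, beside 8.03% of all genes tested. None was called lower by limma-voom, edgeR or DESeq2, with 1 lower at an unadjusted p under 0.05, and the median was 0.11. That gene was Dok4, a docking protein of RET, at 20.4 ± 9.40 against 63.4 ± 29.3 CPM (log2 fold change 1.64, SE 0.41, limma-voom adjusted p = 0.0345). Dok4 lost the call without Nf1fl/fl;DhhCre replicate 1 (0.108) or 3 (0.0981) and without labelled double knockout replicate 2 (0.0724) or 3 (0.0609). Of 11 genes commonly induced by receptor tyrosine kinase signalling, 3 were called lower by limma-voom, beside 5.36% of all genes tested. By edgeR 3 and by DESeq2 5 of the 11 were called lower, and their limma-voom median was -0.83. None was called higher by any of these tools, with 1 higher at an unadjusted p under 0.05. Without Nf1fl/fl;DhhCre replicate 1 none was called lower, and Dusp6 also lost the call without Nf1fl/fl;DhhCre replicate 3 or labelled double knockout replicate 2 or 3. The ETS factor Etv4 differed by -1.82 on the log2 scale (limma-voom SE 0.31, adjusted p = 0.0135). For the immediate early gene Egr1 the difference was -1.20 (SE 0.21, adjusted p = 0.0134) and for the ERK phosphatase Dusp6 -1.02 (SE 0.22, adjusted p = 0.0225). These targets respond to many receptors and in every cell of the tissue.

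**Figure D4:**
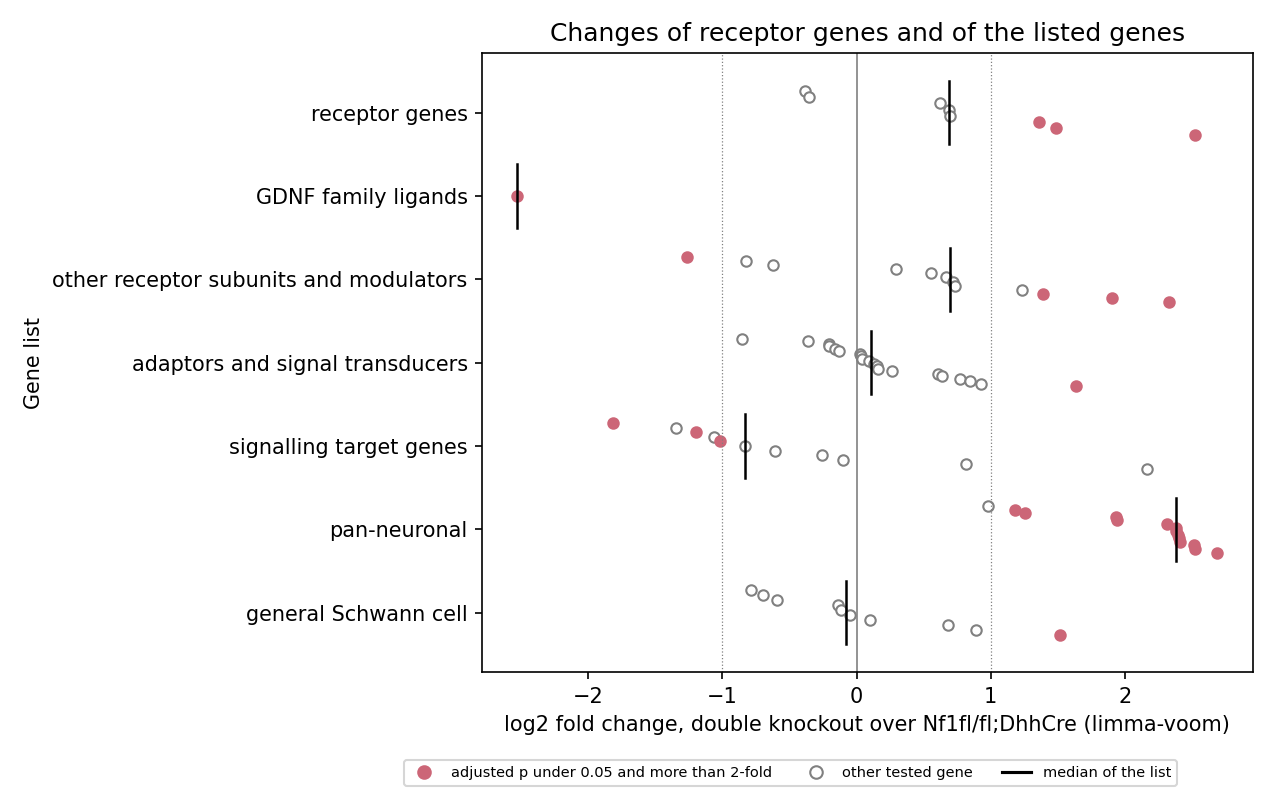
Log2 fold change (labelled double knockout over Nf1fl/fl;DhhCre, limma-voom) of each tested gene by list, with filled points for genes called changed, open points for other tested genes, a black bar at each list's median and dotted lines at 2-fold. The receptor median is 0.69, that of the pan-neuronal genes 2.38 and that of the signalling target genes -0.83.

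The genes nearest to each receptor across the 6 libraries were sought by the root mean square difference of mean-centred log2 CPM among the 10215 genes whose mean log2 CPM was 3 or more. Those nearest to Ret were Robo2, an axon guidance receptor (0.067), and Pirt, a regulator of sensory TRP channels (0.083). Ppm1e was near to Ntrk3 (0.140). Those nearest to Ngfr were Ldb2 (0.048) and Peg3 (0.055), and those nearest to Sort1 Yars2 (0.049) and Rxrg (0.053). For Ntrk2 they were Bet1 (0.074) and Ccdc50 (0.078), for Gfra1 Mpdz (0.071) and Slc20a2 (0.073), and for Gfra2 Clcn6 (0.068) and Rap1gap2 (0.080). Gfra3 had no gene as near, the closest being Adarb1 (0.259) and Pck2 (0.319). With 1 library left out, only 3 to 7 of the 16 nearest genes found were the same, so that the names describe these 6 libraries.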

How the data were processed

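Total RNA was amplified with a NuGEN kit and sequenced from Nextera XT libraries. The authors' notes name CASAVA 1.4, TopHat, featureCounts and limma with the mm10 build, and the values are the raw counts per gene that the authors deposited, 1 table per library. Strand use in counting is not given in the sources used here.

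Counts were filtered with filterByExpr, TMM-normalized (edgeR 4.0.16) and tested with limma-voom (limma 3.58.1, R 4.3.3) after the study's methods, with Benjamini-Hochberg adjustment over 15652 genes. Called means an adjusted p under 0.05 and more than 2-fold. Log2 CPM for ratios used a prior count of 0.5. The fit was tested on simulated counts, where 44.4% of genes changed 3-fold and 80.6% of those changed 6-fold were called. Alternatives were edgeR's quasi-likelihood test and DESeq2 1.42.0, other normalizations and filters, quality weights and leaving out each library.

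The members and gene lists were chosen with earlier results of these data known. The rule names all receptors and ligands, of other lists the called genes up to 5, and the 2 nearest genes of each receptor, and a few genes it picks are left out. Adgre1 was matched by a RefSeq synonym. Library totals of 12439296 to 16682194 counts set the precision. Intervals cover the spread between libraries.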

Additional observations from a re-analysis of the deposited data

How the results depend on the processing

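No paired analysis was possible because the labels give mouse numbers that the groups do not share. With all libraries, 56 of 56 receptor results kept their direction and their side of the threshold across edgeR, DESeq2, other normalizations, filters and quality weights, and Ntrk3, Ngfr and Ret were the called genes in each. The receptors at an adjusted p under 0.05 went from 6 to 4 with library size alone, which put the median of all genes at -0.06 against 0.02, and with every gene above 0 counts tested, and to between 0 and 4 with 1 library left out. With 1 library left out, 41 of 48 receptor results held, 6 lost the call and 1 reversed. In these fits with 1 library left out, the number of genes called changed ranged from 362 to 2285 (main 2096), of receptors from 0 to 3 (main 3) and of pathway genes from 1 to 12 (main 10). With all libraries, DESeq2 called 2907 genes and quality weights 2512. Without Nf1fl/fl;DhhCre replicate 1, 2.26% of genes were called and no receptor was, with 6 receptors at an unadjusted p under 0.05. The log2 fold change ranged from 1.23 to 1.76 for Ntrk3, from 1.06 to 1.69 for Ngfr, from 2.18 to 3.06 for Ret and from -0.79 to 0.27 for Gfra3. Against the median of the pan-neuronal genes in place of their mean, the Ngfr ratio differed by -0.63 rather than -0.74. The cause of these shifts was not tested. The labels and the deposited data disagree on whether labelled double knockout replicate 2 or 3 came from the other sequencing run, and each was left out in turn. The mouse number of Nf1fl/fl;DhhCre replicates 1 and 2 differs in the same way. With 3 libraries a group, exact tests could not go below p = 0.1.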

Other observations

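Skeletal muscle genes separated single libraries rather than groups. The sum of 12 such genes was 3869 CPM in Nf1fl/fl;DhhCre replicate 2 and 15006 CPM in labelled double knockout replicate 2, against 13.7 CPM in the lowest Nf1fl/fl;DhhCre library and 80.6 CPM in the lowest labelled double knockout library. Myh4, a fast muscle myosin, was at 0 in Nf1fl/fl;DhhCre replicate 3 and reached 8227 CPM in labelled double knockout replicate 2. None of the 12 was called changed by limma-voom, edgeR or DESeq2, and 0 had an unadjusted p under 0.05. Of 7 satellite glia genes, 1 was called higher and 1 lower, beside 8.03% and 5.36% of all genes tested. Without Nf1fl/fl;DhhCre replicate 1 none of these satellite glia genes was called. Their summed levels were 884 to 1303 CPM against 850 to 1389 CPM. Of 6 endothelial and mural genes, none was called in the main limma-voom fit, by edgeR or by DESeq2 (2 at an unadjusted p under 0.05). In limma-voom fits, 1 was called higher with sample quality weights and 1 without Nf1fl/fl;DhhCre replicate 2. Without labelled double knockout replicate 3, 2 were called higher. The endothelial and mural sums were 269 to 356 CPM against 287 to 505 CPM.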
